A study of Homo sapiens with 2 samples.

Results

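Immediate early genes are switched on within minutes of a growth factor or matrix signal, before any new protein has been made. ERK kinases phosphorylate ETS cofactors of the transcription factor SRF, which binds CArG boxes upstream of many of these genes, and the products pass the signal on to later genes. In squamous carcinoma cells the response lies downstream of EGF receptors and integrins, and it is switched off again by unstable mRNA and by phosphatases that act on the kinases. The 10 genes described here are EGR1, EGR2 and EGR3, which encode zinc finger transcription factors, IER2, IER3 and IER5 of the immediate early response proteins, the orphan nuclear receptors NR4A1 and NR4A2, and SRF and MYC. They were taken as all probe sets to which the annotation of the array gives exactly 1 of these symbols. This gave 16 probe sets for 9 genes, out of 54613 probe sets and 19775 genes. No probe set is named EGR2 in that annotation, and EGR2 is not analysed here. The genes were chosen with their values on these arrays known, so counts over them describe the arrays and are not evidence of a direction.

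HSC-3, an established cell line, comes from a squamous cell carcinoma of the human oral tongue, and the cells on both surfaces carried a red fluorescent protein brought in by lentivirus together with a control sequence that codes for nothing. Myogel is a protein extract of human uterine leiomyoma. The line is maintained in medium with fetal bovine serum, and the medium of the seeded wells is not named separately. RNA was taken the day after 90000 cells had been seeded on Myogel-coated or uncoated wells, and equal amounts from 3 wells were pooled for each surface. The comparison is thus 1 Affymetrix U133 Plus 2.0 array of cells on Myogel against 1 array of cells on plastic, with no replicate and no p-value, and a protocol label that names uncoated plates for both samples is contradicted by the titles and the methods. The values are linear intensities as deposited, and a fold change (FC) is Myogel over plastic. In RNA from whole wells, more cells that express a gene and more RNA per cell cannot be told apart.

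In place of a replicate error, each log2 FC is set beside the range in which 95% of the 1000 probe sets of nearest signal lay. This range describes the spread of these 2 arrays and is not a test. The median log2 FC came to -0.11 over all probe sets and -0.07 over all genes, each gene being represented by its brightest probe set. All 7 measured markers of squamous epithelium were bright, with values of 1169 to 18224 on Myogel and 1595 to 18856 on plastic. All 7 stayed within FC 1.5, and 2 had a log2 FC above 0. KRT5, with a log2 FC of -0.234, lay just below its range, which began at -0.229. KRT6A, KRT17 and TP63 of the same list were not analysed. The 8 markers of smooth muscle, from which Myogel is made, ranged from 1 to 272 on Myogel and from 14.3 to 239.7 on plastic, with a summed value of 857 on Myogel and 924 on plastic. Of these 8, 1 was higher with FC 1.5 or more (LMOD1) and 2 were lower (CNN1 and SMTN). The shares over all genes were 9.71% and 17.5%, and LMOD1, CNN1 and SMTN lay inside their ranges. CNN1, a smooth muscle calponin, was at the floor of 1 on Myogel and had 17.6 on plastic. The signal at the 3′ end of ACTB over that at its 5′ end, a measure of how complete the labelled RNA was, was 6.10 on Myogel and 3.19 on plastic, and for GAPDH it was 1.22 on Myogel and 1.10 on plastic. The part of this difference in the values below was not tested.

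The promoters of EGR1, SRF and IER2 show how the members differ in exact matches to the SRF motif. Windows of 250 bases before the start of transcription, from the RefSeq table (GRCh38.p14), were searched for 6 of the 10 genes. These were EGR1, EGR2, IER2, IER5, NR4A1 and SRF. EGR3 and MYC were not looked up, so the table may hold windows for them. The windows are read 5′ to 3′ on the strand of the gene, with CArG boxes in capitals.
EGR1, chr5:138465229-138465478, plus strand: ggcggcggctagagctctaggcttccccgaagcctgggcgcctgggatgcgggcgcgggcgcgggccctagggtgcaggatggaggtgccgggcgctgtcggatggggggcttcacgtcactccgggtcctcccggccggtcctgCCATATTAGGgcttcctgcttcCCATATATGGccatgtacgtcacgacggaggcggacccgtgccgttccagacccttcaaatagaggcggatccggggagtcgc
SRF, chr6:43171019-43171268, plus strand: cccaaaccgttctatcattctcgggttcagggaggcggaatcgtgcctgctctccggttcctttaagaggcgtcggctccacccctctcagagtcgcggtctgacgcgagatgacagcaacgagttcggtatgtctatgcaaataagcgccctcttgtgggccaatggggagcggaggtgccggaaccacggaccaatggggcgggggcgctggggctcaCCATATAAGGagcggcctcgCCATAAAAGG
IER2, chr19:13150161-13150410, plus strand: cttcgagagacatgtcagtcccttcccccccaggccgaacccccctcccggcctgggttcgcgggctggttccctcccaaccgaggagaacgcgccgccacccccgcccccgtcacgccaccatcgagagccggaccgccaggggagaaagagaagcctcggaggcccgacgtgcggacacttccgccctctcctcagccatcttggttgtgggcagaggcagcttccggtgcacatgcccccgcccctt
The EGR1 window holds 2 CArG boxes, which begin 105 and 83 bases before the start. The SRF window printed here holds 2, which begin 30 and 10 bases before its start, and the other window of SRF holds none. The windows of IER2, IER5 and NR4A1 hold none, and 1 of the 3 windows of EGR2 holds 1. Only exact matches to CC, 6 bases of A or T, and GG were counted. Sites that deviate from this pattern or lie outside the 250 bases were not searched for, so a count of none does not mean that SRF sites are absent. On either strand, at least 1 CArG box is present in 1.16% of the 35114 windows of this length in the table and 2 or more in 0.0313%. The core TGACG of the cyclic AMP response element, which does not overlap these boxes, occurs on either strand 2 times in the EGR1 window and 1 time each in those of SRF and IER2, and in 21.2% of all windows. A match describes the letters of the window and says nothing of binding in these cells.

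EGR1, which turns growth factor and adhesion signals into transcription, had higher values on Myogel in each of its 3 probe sets. The brightest gave 5318 on Myogel and 1701 on plastic, an FC of 3.13. The second gave 1860 on Myogel and 537 on plastic (FC 3.46), and the remaining one gave 1527 on Myogel and 471 on plastic (FC 3.24). The 3 log2 FCs averaged 1.71 ± 0.07 (SD over 3 probe sets of the same 2 arrays, which are not replicates), and each lay above its range for like signal, the widest of which ended at 0.53. All 3 are of the _s_at type, which may detect more than 1 transcript. Among the 4944 genes in the top 25% of signal, none had a higher FC than EGR1. EGR3, a relative that binds the same DNA motif, was dim and had 30.5 on Myogel and 45.6 on plastic. Its log2 FC of -0.58 lay just inside FC 1.5 and within a range of -1.56 to 1.38, so it did not stand out from probe sets of like signal. The 2 EGR genes thus lay on opposite sides of 0, at very different signal.

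**Figure D1:**
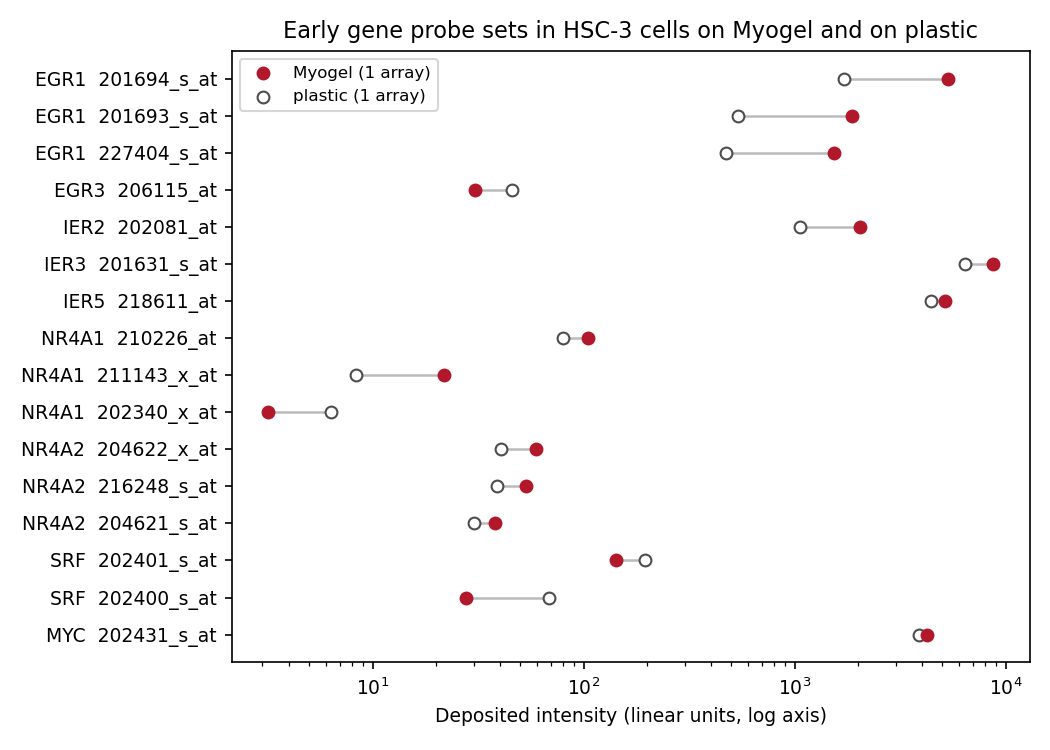
Deposited intensity (x axis, linear units on a log axis) of each of the 16 probe sets on the Myogel array (red points) and the plastic array (open points), with rows named by gene and probe set. EGR1 (1527 to 5318 on Myogel) and IER2 (2034 on Myogel) show the widest gaps among bright probe sets, while levels of different probe sets cannot be compared with each other.

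The IER genes all had higher values on Myogel, by amounts that differed. IER2, a nuclear protein of the early response, had 2034 on Myogel and 1054 on plastic in its single probe set, an FC of 1.93 and a log2 FC of 0.95 against a range of -0.47 to 0.44. In the top 25% of signal only EGR1 had a higher FC than IER2. IER3, which acts on cell survival and on ERK signaling, had 8729 on Myogel and 6385 on plastic. Its log2 FC of 0.45 stayed within FC 1.5 but lay above the range of -0.29 to 0.19, and 42 genes of the top 25% had a higher FC. IER5, a partner of the heat shock factor HSF1, had 5126 on Myogel and 4392 on plastic, a log2 FC of 0.22 inside its range of -0.34 to 0.27. IER2 therefore passed FC 1.5, IER3 stood out only against probe sets of like signal, and IER5 did neither.

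The NR4A receptors were dim, and their probe sets do not settle a direction. NR4A2 (NURR1), known for its role in dopamine neurons, had values of 59.5, 53.3 and 37.95 on Myogel and of 40.6, 38.6 and 30.1 on plastic in its 3 probe sets, in the same order. All 3 were higher on Myogel, by 0.45 ± 0.11 on the log2 scale (SD over 3 probe sets), and all 3 lay inside ranges that reached from -1.49 or lower to 1.39 or higher. After quantile normalization the 3 log2 FCs were 0.77, 0.69 and 0.61 and all passed FC 1.5, so that whether NR4A2 counts as higher depends on the scaling of dim probe sets. NR4A1 (NUR77), induced by growth factors and by stress, had 104 on Myogel and 79.4 on plastic in its brightest probe set, a log2 FC of 0.39. Its other probe sets had 21.7 on Myogel and 8.33 on plastic, and 3.18 on Myogel and 6.33 on plastic, and thus passed FC 1.5 in opposite directions, both inside their ranges. Over its 3 probe sets the log2 FC was 0.26 ± 1.19 (SD).

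SRF, which drives many early genes as well as genes of the actin cytoskeleton, had lower values on Myogel. Its brighter probe set gave 143 on Myogel and 195 on plastic, a log2 FC of -0.45. The dimmer one gave 27.5 on Myogel and 68.15 on plastic, a log2 FC of -1.31, and both lay inside their ranges. With the mean over both probe sets the log2 FC was -0.88, past FC 1.5. MYC, a transcription factor of growth and ribosome synthesis, had 4222 on Myogel and 3882 on plastic. Its log2 FC of 0.12 lay inside a range of -0.36 to 0.30.

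**Figure D2:**
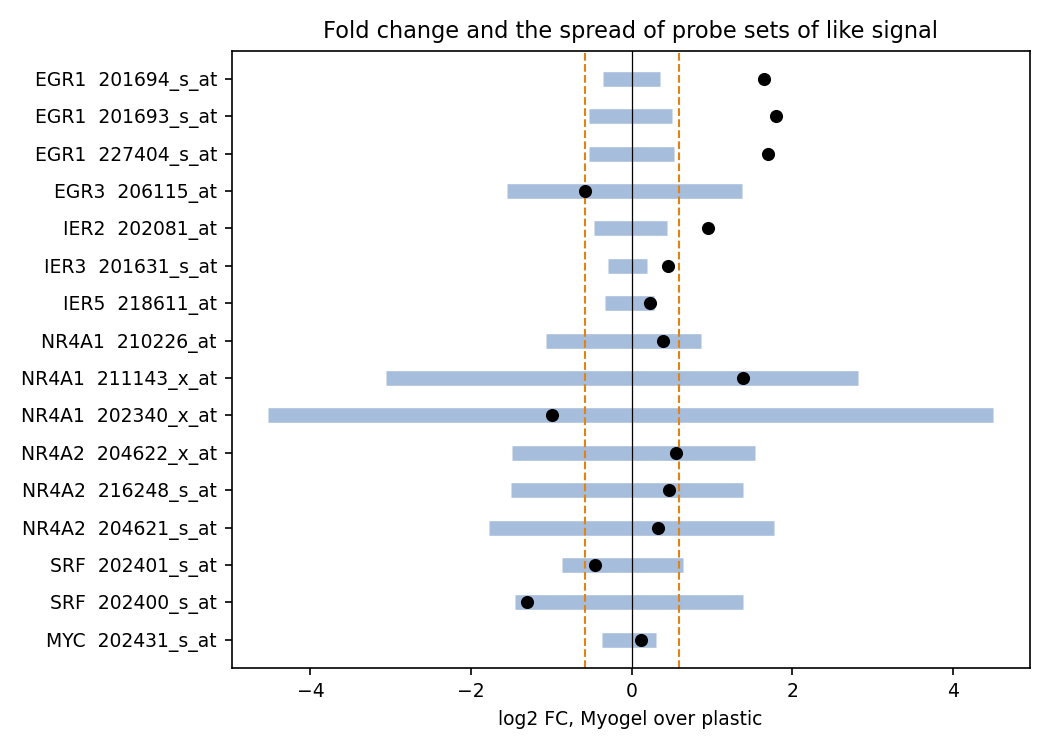
Log2 FC of Myogel over plastic (x axis) for each of the 16 probe sets (black points), with blue bars for the spread of 95% of the 1000 probe sets of nearest signal and dashed lines at FC 1.5. The 3 probe sets of EGR1 and those of IER2 and IER3 lie to the right of their bars, and the other 11 lie inside them.

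Counted over probe sets, 5 of 16 were higher with FC 1.5 or more, against 13.8% of all probe sets, and 2 were lower, against 24.2%. Counted over genes, 2 of 9 were higher, against 9.71% of all genes, and 0 were lower, against 17.5%. In numbers, these shares are 7553 higher and 13207 lower probe sets as deposited, and quantile normalization gave 9971 higher and 9973 lower ones. Of 5 members in the top 25% of signal, EGR1, IER2, IER3, IER5 and MYC, all were above 0 and 2 were higher with FC 1.5 or more, against 0.303% of the genes in that part. Over the 9 genes the median log2 FC was 0.39, against -0.07 over all genes. With a difference of 100 linear units as a further condition, 4 of 16 were higher, those of EGR1 and IER2, against 0.65% of all probe sets. Leaving out the less specific _a_at, _s_at and _x_at types removes EGR1 from the measured genes. Under each scaling, offset, signal filter and probe set average that gives them a value, EGR1, EGR3, IER2, IER3, IER5, NR4A1 and MYC kept their direction and their side of FC 1.5, although NR4A1 passes both ways where any of its probe sets may count.

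**Figure D3:**
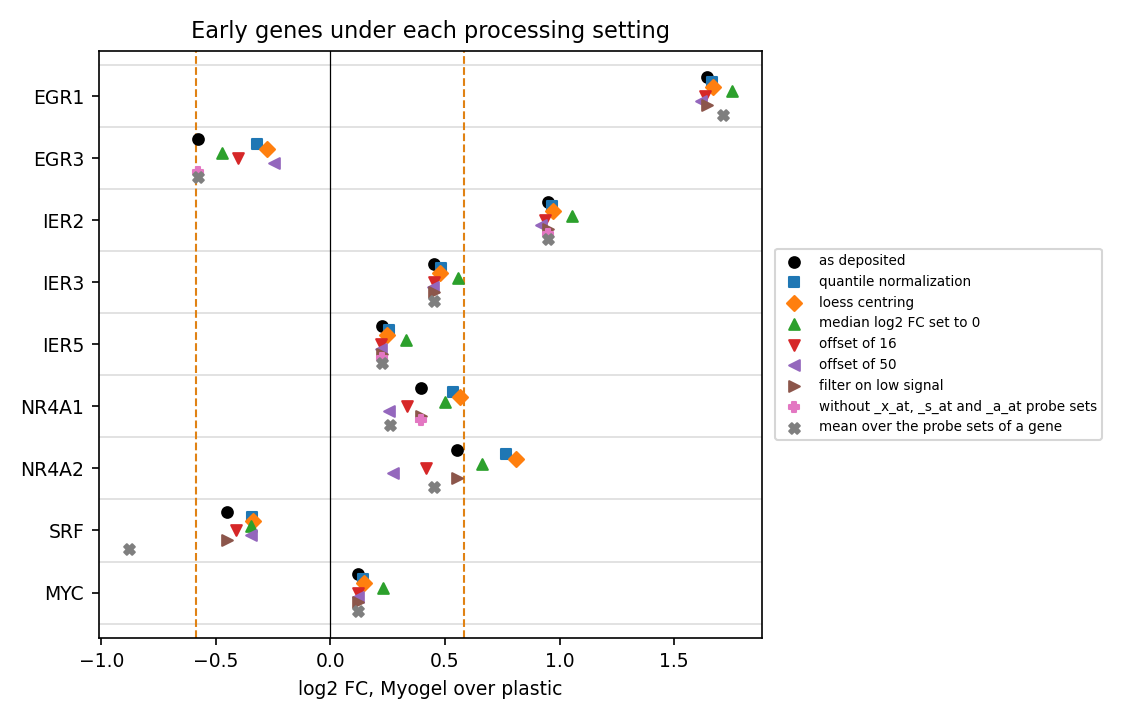
Log2 FC of Myogel over plastic (x axis) of the 9 genes under each processing setting (symbols in the legend), with dashed lines at FC 1.5. EGR1 stays between 1.62 and 1.75 and IER2 between 0.92 and 1.06, while NR4A2 spreads from 0.27 to 0.81 and SRF from -0.88 to -0.34.

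By their brightest probe sets, genes whose products work with the members stayed within FC 1.5. NAB1, a co-repressor that binds EGR proteins, had 1840 on Myogel and 1690 on plastic, and its relative NAB2 had 1340 on Myogel and 1199 on plastic. The dimmer probe sets of both went the other way, with log2 FCs of -3.56 to -0.31 for the 3 of NAB1 and of -1.55 for the single one of NAB2. Of the RXR receptors that pair with NR4A1 and NR4A2, RXRA had 2040 on Myogel and 1817 on plastic. None of 6 cofactors of SRF passed FC 1.5, though any probe set of a gene gave 1 higher and 3 lower ones. The largest change among the brighter cofactors was that of ELK3, an ETS factor of the ternary complex, with 4659 on Myogel and 3703 on plastic. Its log2 FC of 0.33 lay above its range, which ended at 0.30, while its other probe set went the other way (log2 FC -0.51). None of 13 cytoskeletal and matricellular targets of SRF passed either, with a median log2 FC of 0.10, and ACTG1 and FLNA were not analysed. The mean over probe sets instead gave 2 higher and 2 lower targets, and any probe set gave 3 higher and 3 lower ones. The largest change among the brighter ones was that of ZYX, which encodes the focal adhesion protein zyxin, with 1759 on Myogel and 1352 on plastic, and its dimmer probe set again went the other way (log2 FC -0.32). Of 9 partners and relatives of MYC, 0 passed, and of 18 MYC target genes 1 was higher, the dim TERT (45.95 on Myogel, 27.2 on plastic), named after its value was seen. The median log2 FC was -0.04 for the partners and -0.03 for the targets. The largest changes among the brighter genes of these lists were those of MYCL, a relative of MYC (1155 on Myogel, 1478 on plastic), and of EIF4E, the cap-binding factor (2682 on Myogel, 1968 on plastic). The log2 FC of EIF4E, 0.45, lay above its range, which ended at 0.37, and its other probe sets lay between -0.96 and 0.14.

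The members' families hold 3 further genes. IER5L had 239 on Myogel and 193.5 on plastic, EGR4 had 39.2 on Myogel and 44.0 on plastic, and NR4A3 had 22.9 on Myogel and 43.9 on plastic. EGR4 and NR4A3 were dim and named after their values were seen. NR4A3 passed FC 1.5 downwards, inside its range, but its other probe sets went both ways, with log2 FCs of -0.72 and 0.54. It no longer passed with the mean over probe sets, an offset of 50, the filter on low signal, a difference of 100 linear units or FC 2. Of the EGR and NR4A genes analysed, EGR1 was the only one with a log2 FC above its range.

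Of 23 other immediate early genes, 5 were higher on Myogel by FC 1.5 or more and 0 were lower, against 9.71% and 17.5% of all genes, with a median log2 FC of 0.18. BTG2, MAFK and AREG of the same list were not analysed here. The count of higher genes fell to 3 with an offset of 16, a difference of 100 linear units or FC 2 and to 2 with an offset of 50, and counting any probe set gave 9 higher and 3 lower genes. FOS, which forms AP-1 with JUN proteins, had 676 on Myogel and 145 on plastic, a log2 FC of 2.22 above its range of -0.70 to 0.60. JUNB had 424 on Myogel and 201 on plastic, a log2 FC of 1.07. TRIB1, a pseudokinase, had 599 on Myogel and 399 on plastic, inside its range, and its other probe sets gave 0.00 to 0.88 on the log2 scale. The other 2, named after their values were seen, were KLF2 (115 on Myogel, 68.65 on plastic) and FOSB, which was near the floor on both arrays. JUN, also named after its values were seen, stayed within FC 1.5 with 1367 on Myogel and 925 on plastic. The log2 FC of JUN, 0.56, lay above its range, which ended at 0.48, and its other probe sets lay between 0.03 and 0.94. ERK feedback phosphatases and Sprouty proteins had 4 higher genes of 13 and 0 lower, against the same shares of all genes, with a median of 0.28. Any probe set of a gene gave 7 higher and 1 lower, the mean over probe sets 5 and 1, and FC 2 gave 1 higher. DUSP6, a phosphatase of ERK, had 1775 on Myogel and 1025 on plastic, with log2 FCs of 0.74 and 0.92 in the 2 further probe sets. DUSP1 had 2447 on Myogel and 1517 on plastic, and DUSP5 had 459 on Myogel and 284 on plastic. The last of the 4 was the dim DUSP2, named after its value was seen. The RAS, RAF, MEK and ERK cascade and its nuclear kinases had 0 of 13 measured genes past FC 1.5 and a median of 0.00, with RPS6KA2 (292 on Myogel, 375 on plastic) as the largest change.

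Of 16 genes of stress and handling 13 were measured, since the probe sets of the heat shock genes HSPA1A, HSPA1B and HSPA8 carry several symbols and were not used. Among the 13, 0 were higher and 1 was lower, and their median log2 FC was -0.02. The lower gene was the small heat shock protein HSPB1, with 722 on Myogel and 1452 on plastic. Its log2 FC of -1.01 lay below its range of -0.51 to 0.51. Among the 4944 genes in the top 25% of signal, none had a lower log2 FC than HSPB1. DNAJB1 (1491 on Myogel, 1527 on plastic) and GADD45B (1069 on Myogel, 1171 on plastic), singled out after their values were seen, lay inside their ranges. DDIT4, with a log2 FC of 0.143, lay just above its range, which ended at 0.141. Of 9 factors that act on the decay of early mRNAs 0 passed by their brightest probe sets, and BTG2 of this list was not analysed. Counting any probe set gave 4 higher and 3 lower factors, and the mean over probe sets gave 1 lower. The largest change by brightest probe set was that of ZFP36L1 (4194 on Myogel, 3166 on plastic), whose other probe sets went both ways. ZFP36L1 (log2 FC 0.41, range up to 0.33) and ZFP36L2 (0.27, range up to 0.25) lay above their ranges.

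**Figure D4:**
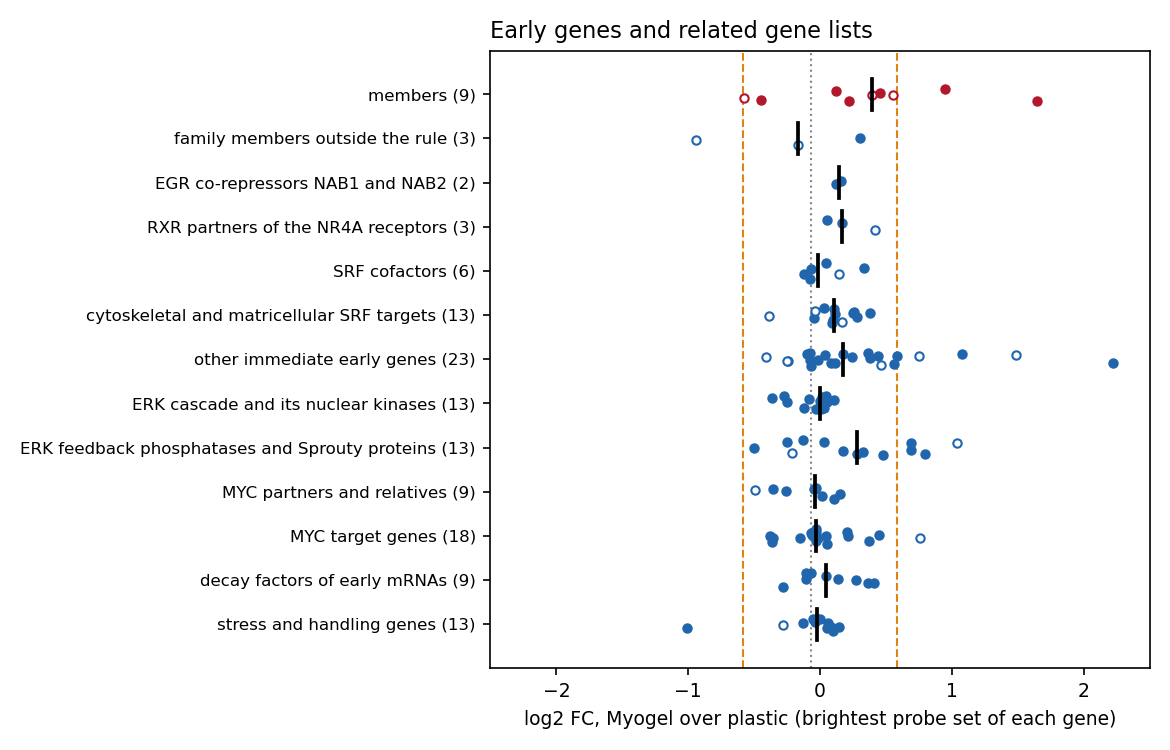
Log2 FC of Myogel over plastic (x axis) of each gene by its brightest probe set, for the 9 members (red) and 12 related lists (blue, number of measured genes in parentheses). Filled points lie at or above the median signal over genes and open points below it, black bars mark list medians, the dotted line the median of all genes (-0.07) and dashed lines FC 1.5; FOS (2.22) and EGR1 (1.64) lie farthest to the right.

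In the pattern of its values EGR1 had no close neighbor among bright genes. Apart from IER2, the 5 genes of the top 25% of signal with the log2 FC nearest to that of EGR1 over the 2 arrays were KLC2, DUSP6, LRRC14, LYPLA2 and CCDC152. Their log2 FCs of 0.82, 0.79, 0.76, 0.72 and 0.70 lay 0.82 or more below that of EGR1. KLC2, a kinesin light chain, had 1615 on Myogel and 913 on plastic in its only probe set. In LRRC14 and LYPLA2 the other probe sets stayed between 0.07 and 0.45, and in CCDC152 the other one had a log2 FC of -0.99, so that DUSP6 was the only one of these 5 genes with more than 1 probe set and the same call in all.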

How the data were processed

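One array per surface was compared, each of RNA pooled from 3 wells. Values are intensity values on a linear scale, which the authors deposited after processing; their methods name the dChip software for the search for FC 1.5 or more, while its version, its model and any scaling of 1 array to the other are not stated in these sources. The lowest value is 1. At this floor lay 4.73% of probe sets on Myogel and 4.42% on plastic. With 2 arrays in all, precision is limited by their number.

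No further scaling was applied. Symbols come from the annotation of the platform, and were updated by Entrez identifier through RefSeq (GRCh38.p14). Of the probe sets, 41091 had 1 symbol, 1801 had several and 11721 are unnamed here. The probe set of highest mean log2 value stood for its gene. No test was run. The members and lists were chosen with earlier results of these data known. Named genes of a list were those past FC 1.5 whose signal reached the median over genes (142), at most 3 upwards and 3 downwards, or else the gene with the largest change there, and 5 genes nearest to EGR1 in log2 FC in the top 25% of signal (from 881). The alternatives were quantile normalization, loess centring (span 0.3), a median log2 FC of 0, offsets of 16 and 50, a filter on low signal, a difference of 100 linear units, leaving out _x_at, _s_at and _a_at probe sets, the mean over or any of a gene's probe sets, and thresholds of FC 1.2 and FC 2. Python 3.11.15 was used with matplotlib 3.10.9, statsmodels 0.14.6, pandas 2.3.3 and numpy 2.4.6, and the scripts were tested on simulated data.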

Additional observations from a re-analysis of the deposited data

How the results depend on the processing

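Each surface is 1 array, so no replicate could be left out, and no paired analysis was possible because the labels give 1 sample for each surface and no replicate numbers. None of the settings turned the direction of a member with FC 1.5 or more, and the median log2 FC of the member genes lay between 0.25 and 0.50 in all of them. Against 5 higher and 2 lower member probe sets, FC 1.2 gave 10 and 4. FC 2 gave 1 lower one. Quantile normalization and loess centring each gave 8 higher ones. Without _x_at, _s_at and _a_at probe sets 1 was higher and 0 were lower. Of the lower ones, 0 were left with a difference of 100 linear units, and 1 with the filter on low signal, with an offset of 16 and with an offset of 50. Against 2 higher and 0 lower member genes, FC 1.2 gave 5 and 2. FC 2 gave 1 higher gene, and so did leaving out _x_at, _s_at and _a_at probe sets, by which EGR1 and 4 other genes lose every probe set. Any probe set of a gene gave 2 lower genes, and the mean over probe sets 1 lower gene. Over all probe sets, 7553 were higher and 13207 lower as deposited. FC 1.2 gave 12238 higher and 20935 lower, FC 2 gave 8365 lower, an offset of 16 gave 3812 higher and 7728 lower, an offset of 50 gave 1239 and 2210, the filter on low signal gave 1493 and 3252, and the difference of 100 linear units gave 355 and 500. After quantile normalization 9971 were higher and 9973 were lower, a share of higher calls that differs from that of the deposited values. Signal limits what can be said of EGR3, NR4A1, NR4A2 and the dimmer probe set of SRF.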
